A study of Mus musculus with 8 samples.

Results

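The PI3K, AKT and mTOR components examined were Pik3cd, Inpp5d, Akt1, Akt2, Tsc2, Mtor, Rptor and Rictor, chosen by gene symbol as 8 of the 24902 symbols in a bulk RNA-seq count matrix of mouse splenic B cells. All 8 had a value in every library and passed the filter on low counts. The matrix held 8 mice of the C57BL/6N strain at ERC (early removal criteria, the disease stage at which an animal is euthanized). They were 4 Eµ-PRMT5 mice, which carry human PRMT5, 3 Eµ-PRMT5/TCL1 mice, which carry human PRMT5 and TCL1, and 1 Eµ-TCL1 mouse, which carries TCL1 alone. In each line a VH promoter and IgH enhancer direct the transgene to B cells. TCL1 is the oncogene of an established mouse model of chronic lymphocytic leukemia (CLL), and PRMT5 is an arginine methyltransferase. B cells were taken from spleen with a pan B cell isolation kit. Ages are not given in the labels, and mice without a transgene were not analysed here.

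As background, class I PI3K makes the membrane lipid PIP3 after B cell receptor and cytokine signals, PIP3 recruits AKT, and AKT restrains the TSC complex and the FOXO transcription factors. Release of RHEB from TSC2 activates mTOR in the raptor complex (mTORC1), which raises protein and lipid synthesis, whereas mTOR in the rictor complex (mTORC2) phosphorylates AKT. The pathway keeps mature B cells alive, and PI3Kδ inhibitors are used in CLL. TCL1 binds AKT and raises its kinase activity. Messenger RNA levels do not measure the activity of these kinases.

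Counts on genes ranged from 3356297 in the Eµ-TCL1 mouse to 10252426 in Eµ-PRMT5 mouse 4. Levels are given as CPM, counts relative to library size, adjusted between libraries by edgeR's TMM method, and differences as log2 fold changes from edgeR's quasi-likelihood test, with p-values adjusted by the Benjamini-Hochberg method over the 13173 genes tested. Eµ-PRMT5 mouse 1 stood apart in the matrix, with a value for 16379 symbols against 20411 to 21475 in the other mice. All 9 B cell markers examined (Cd79a, Cd79b and others) were among the tested genes, and their summed level was 2117 to 7352 CPM (Eµ-PRMT5), 3895 to 9252 CPM (Eµ-PRMT5/TCL1) and 5429 CPM (Eµ-TCL1). The sum of 10 neutrophil markers was 427 to 5404, 663 to 9270 and 604 CPM in the same order, and exceeded that of the B cell markers in Eµ-PRMT5 mouse 4 and in mouse 1 of Eµ-PRMT5/TCL1. Of the 8 T cell markers 6 were tested, with sums of 267 to 714, 257 to 727 and 227 CPM. For the 8 marker lists examined (45 of 57 genes tested), the ranges of Eµ-PRMT5 and Eµ-PRMT5/TCL1 mice overlapped in 8. The part of other cell types in the results was not tested, and in bulk RNA fewer cells of a type and less RNA per cell cannot be told apart. Mouse Prmt5 ranged over 62.7 to 235 CPM (Eµ-PRMT5) and 110.0 to 126 CPM (Eµ-PRMT5/TCL1), with 79.5 CPM for Eµ-TCL1. Mouse Tcl1 held 17, 12 and 0 counts in 3 libraries and no value in the other 5.

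Comparing Eµ-PRMT5/TCL1 with Eµ-PRMT5 mice, none of the 8 components passed the test. At an adjusted p under 0.05, 0 of 8 were called, as were 0.0% of all genes tested, and at an unadjusted p under 0.05 it was 0 of 8 against 2.17% of all genes. Of the 8 log2 fold changes 7 were above 0, with a median of 0.14 beside -0.09 over all genes. Akt2 was the only component whose Eµ-PRMT5/TCL1 mice all lay above the Eµ-PRMT5 mice, a pattern found in 1.35% of all genes. Genotype values of the other 7 overlapped.

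**Figure D1:**
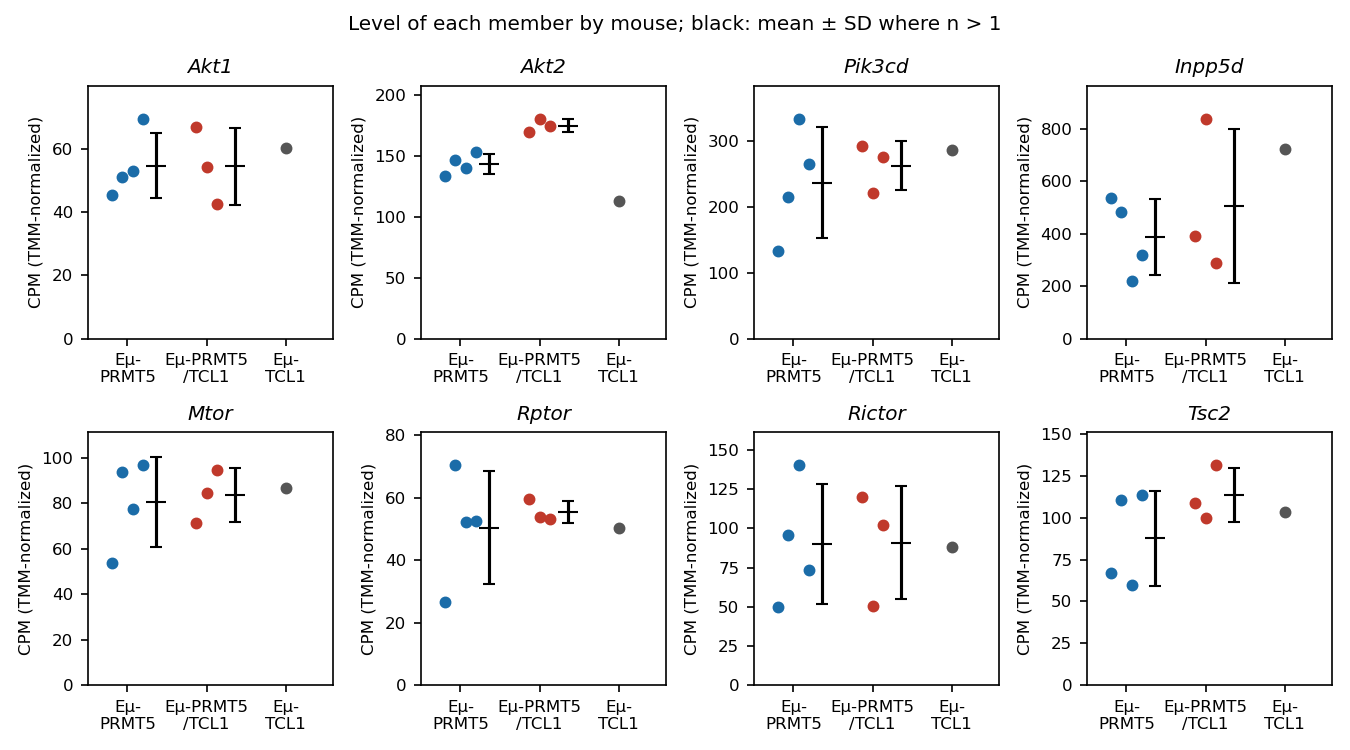
TMM-normalized CPM of each component (vertical axis, from 0) by genotype, with 1 point per mouse (left to right by replicate number) and the mean ± SD in black for the 4 Eµ-PRMT5 and 3 Eµ-PRMT5/TCL1 mice. Only for Akt2 do all Eµ-PRMT5/TCL1 points (169 to 180.0 CPM) lie above all Eµ-PRMT5 points (133 to 153 CPM).

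**Figure D2:**
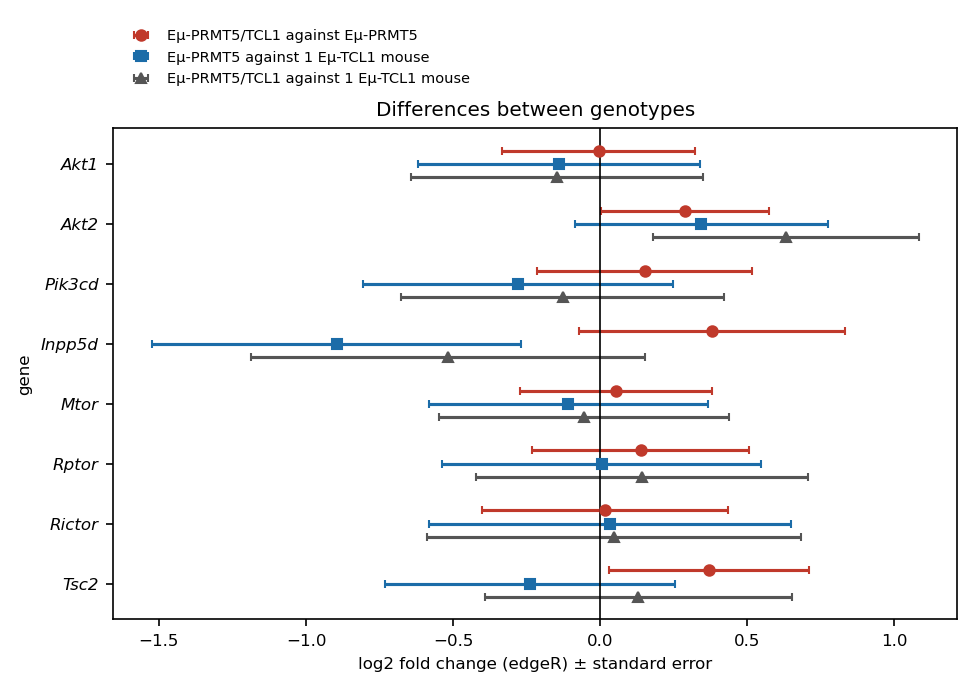
Log2 fold change from edgeR (horizontal axis) with its standard error (bars) for each component in 3 comparisons between genotypes. Of the 24 values the one farthest from 0 is Inpp5d in Eµ-PRMT5 against the Eµ-TCL1 mouse, at -0.90.

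The lipid arm was described by Pik3cd, which encodes p110δ, the catalytic PI3K subunit enriched in leukocytes, and Inpp5d, which encodes SHIP1, the phosphatase that removes the 5 phosphate of PIP3. Pik3cd (chr4:149649168-149702571 on the minus strand, GRCm38) measured 134, 215, 334 and 265 CPM across Eµ-PRMT5 mice 1 to 4, 292, 221 and 276 CPM across Eµ-PRMT5/TCL1 mice 1 to 3 and 287 CPM in the single Eµ-TCL1 mouse. The Eµ-PRMT5 mice spanned the lowest and the highest value of all 8 mice, and the other genotypes lay between them. The means were 237 ± 84.3 CPM (Eµ-PRMT5, SD, n = 4) and 263 ± 37.4 CPM (Eµ-PRMT5/TCL1, SD, n = 3), with a log2 fold change of 0.15 ± 0.37 (SE, adjusted p = 1.00). Inpp5d (chr1:87620312-87720507 on the plus strand) measured 534, 482, 221 and 318 CPM across Eµ-PRMT5 mice 1 to 4, 391, 838 and 288 CPM across Eµ-PRMT5/TCL1 mice 1 to 3 and 724 CPM in the single Eµ-TCL1 mouse. It varied more than any other component, 3.79-fold from Eµ-PRMT5 mouse 3 up to Eµ-PRMT5/TCL1 mouse 2, and both replicated genotypes held low and high mice. The means were 389 ± 145 CPM (Eµ-PRMT5, SD, n = 4) and 506 ± 292 CPM (Eµ-PRMT5/TCL1, SD, n = 3), with a log2 fold change of 0.38 ± 0.45 (SE, adjusted p = 1.00). The sign of this difference rested on Eµ-PRMT5/TCL1 mouse 2, without which it was -0.20.

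The ratio of Pik3cd to Inpp5d sets the kinase that adds to the PIP3 pool beside a phosphatase that removes from it. In counts it was 0.250, 0.445, 1.51 and 0.832 for Eµ-PRMT5 mice 1 to 4, 0.747, 0.264 and 0.959 in Eµ-PRMT5/TCL1 mice 1 to 3, and 0.397 with TCL1 alone. Values spread about as widely within each replicated genotype as over all mice, and the log2 ratio differed between them by -0.09 (exact permutation test over 35 splits, two-sided, p = 0.943, adjusted over 3 ratios 0.943). Eµ-PRMT5 mouse 3 had both the highest Pik3cd and the lowest Inpp5d. This mouse had a T cell marker sum of 714 CPM, against 267 to 328 CPM in the other Eµ-PRMT5 mice. Eµ-PRMT5/TCL1 mouse 2, which had the highest Inpp5d, had a sum of 727 CPM, and the part of T cells in these values was not tested. The sample titles of Eµ-PRMT5 mice 3 and 4 each hold an animal code. The paper describes anaplastic large lymphocytes with histiocytes under the code of the former, and sheets of small lymphocytes under that of the latter. Whether the codes mark the same animals is not stated, and the part of tumour histology in these values was not tested.

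AKT was described by the ubiquitous kinase Akt1 and by Akt2, the isoform best known for insulin signalling. Akt1 (chr12:112653821-112674884 on the minus strand) measured 45.5, 51.0, 52.9 and 69.4 CPM across Eµ-PRMT5 mice 1 to 4, 66.7, 54.3 and 42.4 CPM across Eµ-PRMT5/TCL1 mice 1 to 3 and 60.3 CPM in the single Eµ-TCL1 mouse. The genotypes overlapped over nearly their whole range. The means were 54.7 ± 10.3 CPM (Eµ-PRMT5, SD, n = 4) and 54.5 ± 12.2 CPM (Eµ-PRMT5/TCL1, SD, n = 3), a log2 fold change of -0.006 ± 0.33 (SE, adjusted p = 1.00).

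Akt2 (chr7:27591552-27640826 on the plus strand) measured 133, 146, 140.2 and 153 CPM across Eµ-PRMT5 mice 1 to 4, 169, 180.0 and 174 CPM across Eµ-PRMT5/TCL1 mice 1 to 3 and 113 CPM in the single Eµ-TCL1 mouse. The 3 genotypes did not overlap, with the Eµ-TCL1 mouse lowest, the Eµ-PRMT5 mice between and the Eµ-PRMT5/TCL1 mice highest. The means were 143 ± 8.38 CPM (Eµ-PRMT5, SD, n = 4) and 175 ± 5.33 CPM (Eµ-PRMT5/TCL1, SD, n = 3), a log2 fold change of 0.29 ± 0.29 (SE, adjusted p = 1.00) from edgeR, with an unadjusted p of 0.334. Akt2 varied little within Eµ-PRMT5 mice, with a coefficient of variation of 5.86% beside a median of 45.8% over all genes tested, and 0.311% of these genes had a smaller one. These genes were not matched to Akt2 for level. The separation of Eµ-PRMT5/TCL1 from Eµ-PRMT5 mice held when libraries were scaled by library size only or by the upper quartile. The Eµ-TCL1 mouse, below all 7 others for Akt2 as for 14.2% of genes, was not below all Eµ-PRMT5 mice under either of those scalings, but remained below the 3 Eµ-PRMT5/TCL1 mice.

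The 250 bases before 1 of 4 listed RefSeq starts of Akt2 (chr7:27591302-27591551 (plus strand), RefSeq, GRCm38.p6, 5′ to 3′) are shown because Akt2 was the component whose genotypes did not overlap. Capitals mark the 2 motif matches found, a GC box (GGGCGG) and a CRE core (TGACG), each searched on both strands and present in 32.7% and 17.8% of 32851 windows of this length.
Akt2: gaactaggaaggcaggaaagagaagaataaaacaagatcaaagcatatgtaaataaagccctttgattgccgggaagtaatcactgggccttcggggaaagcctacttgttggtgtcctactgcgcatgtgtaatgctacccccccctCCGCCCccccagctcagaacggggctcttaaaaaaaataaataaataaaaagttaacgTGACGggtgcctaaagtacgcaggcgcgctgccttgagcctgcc

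Of 8 components, with 1 window used for each, Akt1 was the one whose window held the FOXO motif searched (GTAAACA), which 3.2% of windows held. A match is a run of letters and not a measured binding site.

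The ratio of Akt1 to Akt2 counts was 0.341, 0.349, 0.377 and 0.454 in Eµ-PRMT5 mice, 0.394, 0.302 and 0.243 in Eµ-PRMT5/TCL1 mice and 0.535 with TCL1 alone. The Eµ-TCL1 mouse had the highest ratio of the 8 mice, and the replicated genotypes overlapped. The log2 ratio was -1.40 ± 0.19 (SD, n = 4) in Eµ-PRMT5 and -1.70 ± 0.35 (SD, n = 3) in Eµ-PRMT5/TCL1 mice, a difference of -0.30 (exact permutation test, two-sided, p = 0.229, adjusted over 3 ratios 0.686).

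Tsc2 encodes tuberin, the GTPase activator that keeps RHEB off and so restrains mTORC1. Tsc2 (chr17:24595816-24632630 on the minus strand) measured 67.0, 111, 60.0 and 114 CPM across Eµ-PRMT5 mice 1 to 4, 109, 100.2 and 131 CPM across Eµ-PRMT5/TCL1 mice 1 to 3 and 104 CPM in the single Eµ-TCL1 mouse. Eµ-PRMT5 mice 1 and 3 were low and the other 6 mice lay close together. The means were 87.8 ± 28.3 CPM (Eµ-PRMT5, SD, n = 4) and 114 ± 16.1 CPM (Eµ-PRMT5/TCL1, SD, n = 3), a log2 fold change of 0.37 ± 0.34 (SE, adjusted p = 1.00). Leaving out any 1 mouse kept this value between 0.22 and 0.52. In the annotation 693 bases of Tsc2 exon overlap the antisense gene Pkd1, and since no source says whether counting used strand, reads there cannot be told apart.

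Mtor encodes the kinase shared by both mTOR complexes, Rptor the raptor subunit that defines mTORC1, and Rictor the subunit that defines mTORC2. Mtor (chr4:148448611-148557683 on the plus strand) measured 53.8, 93.9, 77.5 and 96.6 CPM across Eµ-PRMT5 mice 1 to 4, 71.2, 84.5 and 94.8 CPM across Eµ-PRMT5/TCL1 mice 1 to 3 and 86.8 CPM in the single Eµ-TCL1 mouse. Apart from the low Eµ-PRMT5 mouse 1 the genotypes shared one range. The means were 80.4 ± 19.7 CPM (Eµ-PRMT5, SD, n = 4) and 83.5 ± 11.9 CPM (Eµ-PRMT5/TCL1, SD, n = 3), a log2 fold change of 0.05 ± 0.33 (SE, adjusted p = 1.00). Rptor (chr11:119602905-119899576 on the plus strand; 84 exon bases overlap the antisense gene Rptoros) measured 26.6, 70.3, 52.2 and 52.6 CPM across Eµ-PRMT5 mice 1 to 4, 59.5, 53.8 and 53.2 CPM across Eµ-PRMT5/TCL1 mice 1 to 3 and 50.3 CPM in the single Eµ-TCL1 mouse. Eµ-PRMT5 mice held the lowest and the highest value, and the Eµ-PRMT5/TCL1 mice differed from each other by only a few CPM. The means were 50.4 ± 18.0 CPM (Eµ-PRMT5, SD, n = 4) and 55.5 ± 3.50 CPM (Eµ-PRMT5/TCL1, SD, n = 3), a log2 fold change of 0.14 ± 0.37 (SE, adjusted p = 1.00). Rictor (chr15:6708379-6800401 on the plus strand) measured 50.1, 95.9, 140.2 and 73.4 CPM across Eµ-PRMT5 mice 1 to 4, 119.8, 50.5 and 102 CPM across Eµ-PRMT5/TCL1 mice 1 to 3 and 87.9 CPM in the single Eµ-TCL1 mouse. Each replicated genotype had a mouse near the lowest value and a mouse well above the Eµ-TCL1 mouse. The means were 89.9 ± 38.4 CPM (Eµ-PRMT5, SD, n = 4) and 90.8 ± 36.1 CPM (Eµ-PRMT5/TCL1, SD, n = 3), a log2 fold change of 0.01 ± 0.42 (SE, adjusted p = 1.00).

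The ratio of Rptor to Rictor counts does not measure the complexes themselves. It was 0.530, 0.733, 0.372 and 0.716 in Eµ-PRMT5 mice, 0.497, 1.07 and 0.520 in Eµ-PRMT5/TCL1 mice and 0.572 with TCL1 alone. The genotypes overlapped, and the only mouse with more Rptor than Rictor counts was Eµ-PRMT5/TCL1 mouse 2. The log2 ratio differed between the replicated genotypes by 0.20 (exact permutation test, two-sided, p = 0.657, adjusted over 3 ratios 0.943).

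The windows before the RefSeq starts of the mTOR genes are shown because these 3 partners of one kinase system differ widely in base composition. They are chr4:148448332-148448581 (plus strand) for Mtor, chr11:119602655-119602904 (plus strand) for Rptor and chr15:6708131-6708380 (plus strand) for Rictor (RefSeq, GRCm38.p6, 250 bases, 5′ to 3′), with motif matches in capitals.
Mtor: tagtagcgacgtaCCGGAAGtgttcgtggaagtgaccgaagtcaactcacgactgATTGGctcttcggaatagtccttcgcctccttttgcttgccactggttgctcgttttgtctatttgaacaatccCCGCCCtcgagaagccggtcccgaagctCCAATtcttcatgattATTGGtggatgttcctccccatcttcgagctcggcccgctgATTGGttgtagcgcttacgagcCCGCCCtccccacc
Rptor: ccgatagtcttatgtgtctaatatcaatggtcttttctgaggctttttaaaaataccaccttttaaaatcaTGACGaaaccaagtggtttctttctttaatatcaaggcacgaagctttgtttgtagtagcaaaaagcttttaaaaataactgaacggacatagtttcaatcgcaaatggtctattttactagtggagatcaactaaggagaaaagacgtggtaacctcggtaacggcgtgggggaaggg
Rictor: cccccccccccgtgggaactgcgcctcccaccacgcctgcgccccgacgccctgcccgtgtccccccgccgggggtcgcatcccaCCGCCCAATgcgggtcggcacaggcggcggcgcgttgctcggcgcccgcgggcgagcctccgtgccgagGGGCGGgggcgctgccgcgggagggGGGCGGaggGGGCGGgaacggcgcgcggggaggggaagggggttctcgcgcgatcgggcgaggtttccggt

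GC content was 54.4% for Mtor, 37.6% for Rptor and 81.2% for Rictor, beside a median of 52.4% over all windows. The Mtor window held 4 CCAAT boxes (CCAAT), 2 GC boxes and an ETS motif (CCGGAAG). The Rictor window held 4 GC boxes and 1 CCAAT box, the latter overlapping a GC box, and the Rptor window held 1 CRE core. CCAAT boxes were in 33.8% and the ETS motif in 6.9% of all windows. The E-box (CACGTG, 6.0% of windows) and the TATA box (TATAAA, 12.4%) were in none of the 8 windows.

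Against the 1 Eµ-TCL1 mouse, 0 of 8 components were called at an adjusted p under 0.05 in Eµ-PRMT5 mice (0.0% of all genes) and 0 of 8 in Eµ-PRMT5/TCL1 mice (0.0%). At an unadjusted p under 0.05 it was again 0 of 8 in each, beside 6.78% and 6.09% of all genes. These tests assume that the lone mouse varies like the other groups, and they share that mouse. For Eµ-PRMT5 against Eµ-TCL1 the largest difference was that of Inpp5d, -0.90 ± 0.63 (SE, adjusted p = 0.737), and the Eµ-TCL1 mouse (724 CPM) lay above all 4 Eµ-PRMT5 mice, as it did for 24.4% of genes. For Eµ-PRMT5/TCL1 against Eµ-TCL1 the largest was Akt2, 0.63 ± 0.45 (SE, adjusted p = 0.788), with the Eµ-TCL1 mouse below all 3 Eµ-PRMT5/TCL1 mice, as for 27.6% of genes. Rptor was the other component with the Eµ-TCL1 mouse below the Eµ-PRMT5/TCL1 mice, at 50.3 against 53.2 to 59.5 CPM. No component had that mouse above all Eµ-PRMT5/TCL1 mice, where 39.0% of genes did. The place of this mouse depended on the scaling. By library size only it lay above all Eµ-PRMT5/TCL1 mice for 4 components (Akt1, Pik3cd, Inpp5d and Mtor, beside 48.7% of genes), and by upper quartile for 1 (Pik3cd, beside 42.6%). Under each of these scalings it lay above all Eµ-PRMT5 mice for 4 components (Akt1, Inpp5d, Mtor and Tsc2, beside 31.1% and 27.8% of genes) and was no longer below the Eµ-PRMT5/TCL1 mice for Rptor. The remaining log2 fold changes ran from -0.28 to 0.34 in the first comparison and from -0.52 to 0.14 in the second.

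Between genes, levels were compared per kilobase of exon (CPM per kb, median of 8 mice). The order was Inpp5d (57.4), Pik3cd (43.2), Akt2 (21.0), Akt1 (13.1), Tsc2 (11.1), Mtor (8.47), Rictor (5.43) and Rptor (3.92). Pik3cd exceeded Akt2, and Akt2 exceeded Akt1, in 8 of 8 mice. Inpp5d exceeded Pik3cd in only 5 of 8 mice, and Mtor exceeded Rictor in 6 of 8, so these neighbours were not separated beyond the spread between mice. Akt1 over Tsc2, Tsc2 over Mtor and Rictor over Rptor each held in 7 of 8 mice. Low-input amplification and read coverage along long transcripts can shift such levels, and the order was the same with the longest annotated transcript as the length.

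**Figure D3:**
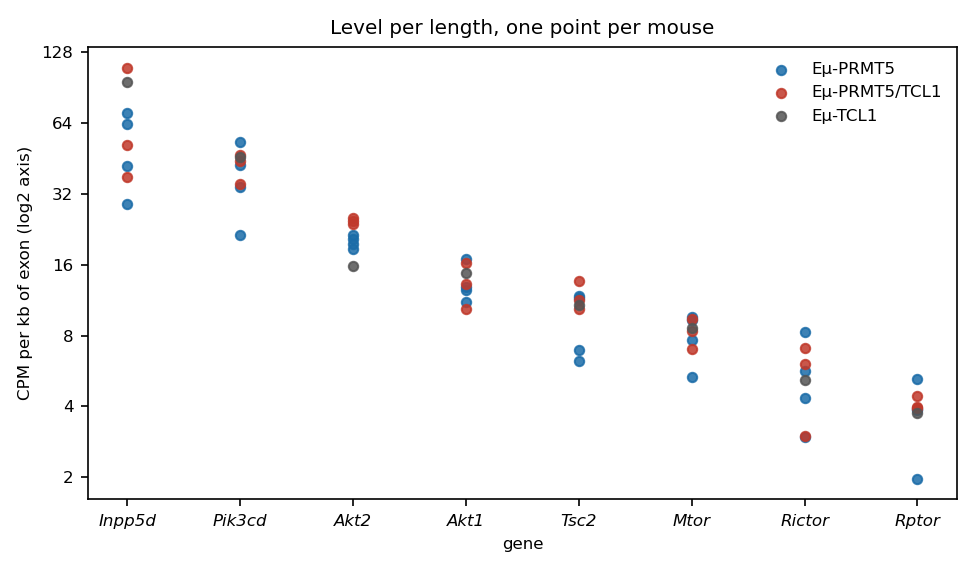
CPM per kb of exon (vertical axis, log2 scale) of the 8 components in order of their median, with 1 point per mouse coloured by genotype. The level falls from a median of 57.4 for Inpp5d to 3.92 for Rptor, and Inpp5d and Pik3cd overlap over much of their range.

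Within gene families the isoforms were unequal. Pik3cd held a median of 65.8% of the summed level per length of the 4 class I catalytic subunits and was the highest of them in 8 of 8 mice, with 44.9% in Eµ-PRMT5 mouse 1 and 76.2% in Eµ-PRMT5/TCL1 mouse 1. The medians of the others were 9.02 for Pik3cg, 7.76 for Pik3ca and 3.67 for Pik3cb, in CPM per kb. Inpp5d (57.4) stood above Inppl1 (5.43), the gene of the related phosphatase SHIP2.

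Across the 8 mice most components varied less than a typical gene. The SD of log2 CPM was 0.23 to 0.66 among them, beside a median of 0.62 over all genes, and 7 of 8 lay below that median, with Inpp5d above it. This background held genes of any level, and genes of matched level were not compared. Eµ-PRMT5 mouse 1 was the lowest mouse for Pik3cd, Mtor, Rptor and Rictor, which is 4 of 8 components, where it was the lowest for 20.4% of all genes. Eµ-PRMT5 mouse 3 was the lowest for Inpp5d and Tsc2 and the highest for Pik3cd and Rictor.

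**Figure D4:**
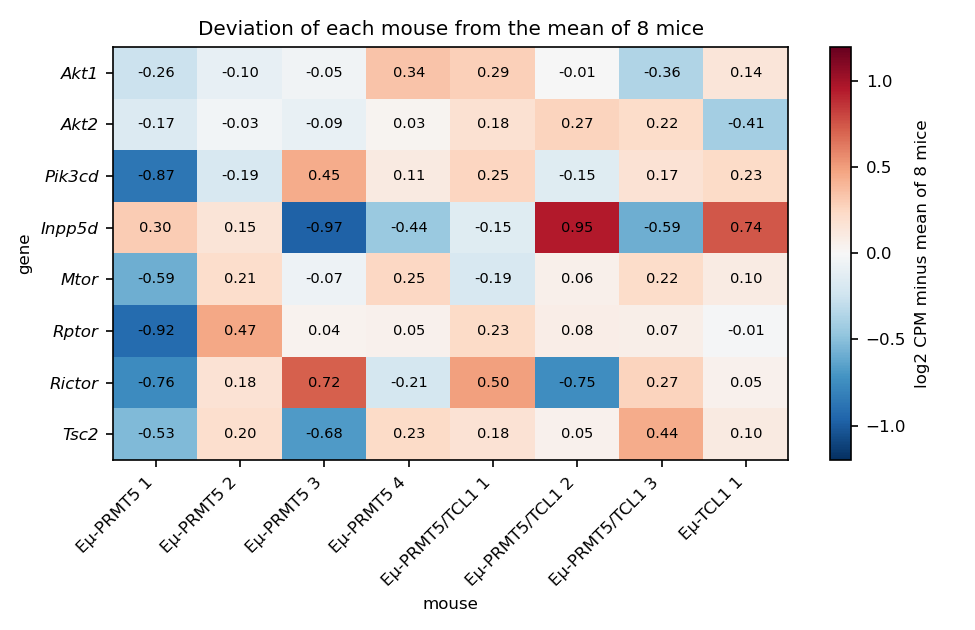
Log2 CPM of each component (rows) in each mouse (columns) minus the mean of the 8 mice, with red for higher and blue for lower. Eµ-PRMT5 mouse 1 is low for Pik3cd (-0.87), Mtor (-0.59), Rptor (-0.92) and Rictor (-0.76), and Inpp5d runs against Rictor in mouse 3 of Eµ-PRMT5 and mouse 2 of Eµ-PRMT5/TCL1.

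Of the 28 pairs of components 21 had a positive correlation of log2 CPM over the 8 mice, and after Benjamini-Hochberg adjustment over the pairs 0 passed 0.05. The one pair with an unadjusted p under 0.05 for Pearson's r was Pik3cd and Rictor, at 0.786 (exact permutation p = 0.0122, 0.340 after adjustment) and a Spearman's rho of 0.810 (p = 0.0218, 0.391 after adjustment, also by exact permutation). Dropping the 2 mice with the most extreme Pik3cd gave an r of 0.951, and without Eµ-PRMT5 mouse 1 it was 0.711. Mtor and Rptor had r = 0.788 (exact permutation p = 0.0673, adjusted 0.471) and rho = 0.262 (exact permutation p = 0.536, adjusted 1.00). Dropping the 2 with the most extreme Mtor gave them an r of 0.346, and without Eµ-PRMT5 mouse 1 it was 0.0387, so the relation rested on that mouse. Mtor and Tsc2 had r = 0.689 (exact permutation p = 0.0600, adjusted 0.471) and rho = 0.786 (exact permutation p = 0.0279, adjusted 0.391), and r was 0.899 without the 2 mice most extreme in Mtor and 0.516 without Eµ-PRMT5 mouse 1. Inpp5d and Rictor ran opposite, with r = -0.683 (exact permutation p = 0.0643, adjusted 0.471) and rho = -0.714 (exact permutation p = 0.0576, adjusted 0.537). That relation weakened without the 2 mice most extreme in Inpp5d, where r was -0.28, and was -0.71 without Eµ-PRMT5 mouse 1. The values of a mouse share its library, scaling and cell content. Eµ-PRMT5 mouse 1 also had the fewest symbols with a value and the highest plasma cell marker sum, and the part of either was not tested.

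The genes with patterns most like each component, by Pearson's r of log2 CPM over 8 mice among 13172 other genes, were named as a description without a test. For Akt2 they were Msn (r = 0.975), which encodes the membrane linker moesin, and Tnf (0.969), the cytokine gene. Those of Inpp5d were Znfx1 (0.949) and Ep300 (0.943), an acetyltransferase gene. Mtor was followed by Nupl2 (0.980) and Rpp40 (0.952), a subunit of ribonuclease P, and Rptor by Gm15518 (0.971) and Cmtr2 (0.963), a cap methyltransferase gene. Rictor had Dse (0.983) and Abca7 (0.963), and Tsc2 had Mbtps1 (0.974), the site-1 protease gene, and Mrrf (0.951). Pik3cd had Gm6909 (0.984) and C86187 (0.979), and Akt1 had Cldn15 (0.949) and Mfn1 (0.941), a mitochondrial fusion gene.

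The rest of the pathway was read from 8 lists with 118 genes, of which 103 were tested. In none of the 3 comparisons was any of the 103 called at an adjusted p under 0.05. For Eµ-PRMT5/TCL1 against Eµ-PRMT5 at an unadjusted p under 0.05, 0 of 103 were higher and 5 were lower, beside 0.957% higher and 1.21% lower of all genes. The 5 were Phlpp1, Sesn1, Lpin1, Il7r and Cxcr4. The number lower was 1 without Eµ-PRMT5/TCL1 mouse 2 and 2 without Eµ-PRMT5/TCL1 mouse 3. Over all genes it fell as well, from 160 of 13173 to 66 of 13164 and 118 of 13160 in these fits. With any other mouse left out, 3 to 6 of the listed genes were lower.

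**Figure D5:**
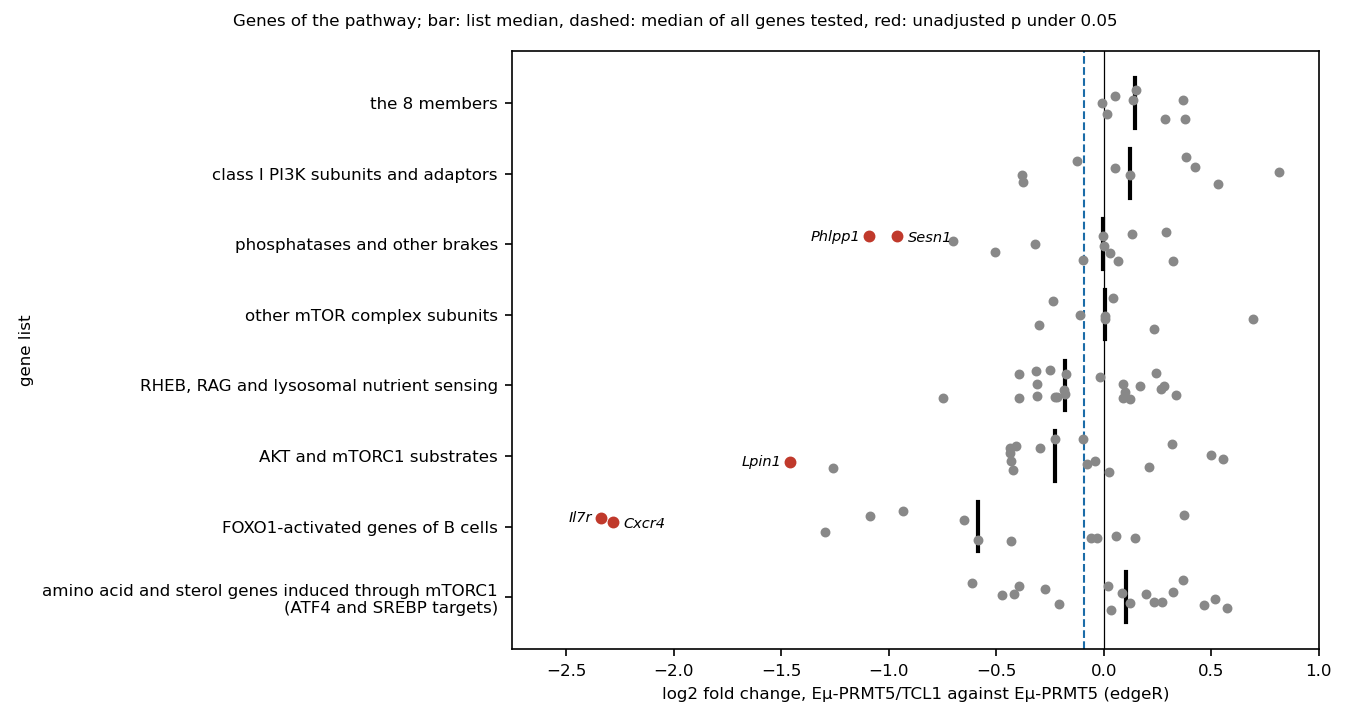
Log2 fold change in Eµ-PRMT5/TCL1 against Eµ-PRMT5 mice (horizontal axis, edgeR) of each tested gene of the components and of the pathway lists with at least 5 tested genes (rows), with list medians as black bars, the median of all genes (-0.09) dashed, and genes with an unadjusted p under 0.05 in red. The 5 red genes all lie at -0.96 or below, and the FOXO1-activated genes have the lowest list median (-0.58).

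Among the phosphatases and other brakes (13 of 13 tested, 6 above and 7 below 0, median -0.002), Phlpp1, a phosphatase that acts on AKT, measured 53.4, 50.7, 31.2 and 29.9 CPM across Eµ-PRMT5 mice 1 to 4, 24.3, 18.7 and 15.1 CPM across Eµ-PRMT5/TCL1 mice 1 to 3 and 39.5 CPM in the single Eµ-TCL1 mouse. All 3 Eµ-PRMT5/TCL1 mice lay below the other 5 mice, and 1.59% of all genes had Eµ-PRMT5/TCL1 below Eµ-PRMT5 in this way. Its log2 fold change was -1.09 ± 0.40 (SE, unadjusted p = 0.0174), with an adjusted p of 1.00. Sesn1, a sestrin that restrains mTORC1, measured 77.7, 45.1, 69.5 and 116 CPM across Eµ-PRMT5 mice 1 to 4, 32.8, 28.2 and 58.1 CPM across Eµ-PRMT5/TCL1 mice 1 to 3 and 62.7 CPM in the single Eµ-TCL1 mouse. Its genotypes overlapped through mouse 2 of Eµ-PRMT5 and mouse 3 of Eµ-PRMT5/TCL1, and its log2 fold change was -0.96 ± 0.41 (SE, unadjusted p = 0.0378). The other sestrins had log2 fold changes of 0.29 (Sesn2) and 0.32 (Sesn3).

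The FOXO1-activated genes of B cells, which AKT is known to turn down by keeping FOXO1 out of the nucleus, had 3 values above 0 and 10 below (13 of 15 tested), with a median of -0.58 beside -0.09 over all genes. Leaving out 1 mouse at a time moved the median between -0.92 and -0.24, the latter without Eµ-PRMT5 mouse 1. Il7r, the receptor chain for interleukin 7, measured 30.6, 26.8, 35.8 and 1.61 CPM across Eµ-PRMT5 mice 1 to 4, 7.38, 4.29 and 2.31 CPM across Eµ-PRMT5/TCL1 mice 1 to 3 and 5.68 CPM in the single Eµ-TCL1 mouse. Eµ-PRMT5 mice 1 to 3 were high, and Eµ-PRMT5 mouse 4 was the lowest mouse of all. Its log2 fold change was -2.34 ± 0.85 (SE, unadjusted p = 0.0171). Cxcr4, the receptor for the homing chemokine CXCL12, measured 242, 99.9, 7.52 and 37.1 CPM across Eµ-PRMT5 mice 1 to 4, 33.1, 18.2 and 8.30 CPM across Eµ-PRMT5/TCL1 mice 1 to 3 and 78.4 CPM in the single Eµ-TCL1 mouse. The difference was carried by Eµ-PRMT5 mice 1 and 2, while mouse 3 lay just below the lowest Eµ-PRMT5/TCL1 mouse. Its log2 fold change was -2.28 ± 0.89 (SE, unadjusted p = 0.0248), and -1.27 without Eµ-PRMT5 mouse 1. The highest values of the list were 0.38 for Gadd45a, a stress response gene, and 0.15 for Ccng2, a cyclin G gene, and both turned below 0 without Eµ-PRMT5/TCL1 mouse 1.

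Foxo1 itself, counted among the AKT and mTORC1 substrates, measured 257, 104, 36.5 and 25.4 CPM across Eµ-PRMT5 mice 1 to 4, 54.9, 22.7 and 54.9 CPM across Eµ-PRMT5/TCL1 mice 1 to 3 and 171 CPM in the single Eµ-TCL1 mouse. The genotypes overlapped, the log2 fold change was -1.26 ± 0.70 (SE, unadjusted p = 0.0948), and without Eµ-PRMT5 mouse 1 it was -0.31. Lpin1, a phosphatidate phosphatase under mTORC1 control, measured 52.8, 31.98, 112 and 21.0 CPM across Eµ-PRMT5 mice 1 to 4, 24.6, 22.2 and 12.6 CPM across Eµ-PRMT5/TCL1 mice 1 to 3 and 47.9 CPM in the single Eµ-TCL1 mouse. Eµ-PRMT5 mouse 3 was well above all others, the log2 fold change was -1.46 ± 0.56 (SE, unadjusted p = 0.0220), and without that mouse it was -0.83. The whole list (17 of 20 tested) had 5 values above 0 and 12 below, with a median of -0.23, which ran from -0.42 to 0.024 with 1 mouse left out. Its highest values were 0.55 for Sgk3 and 0.50 for Tfe3, a lysosomal gene regulator held in check by mTORC1. Sgk3 encodes a kinase related to AKT and is not itself a known substrate, though it was in this list.

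Of the AKT kinases, PDK1 and TCL1 family, Pdpk1, whose product PDK1 phosphorylates AKT, had a log2 fold change of -0.41, which was 0.035 without Eµ-PRMT5 mouse 1, and Mtcp1, a relative of TCL1, had -0.09, which was 0.21 without that mouse. The class I PI3K subunits and adaptors (9 of 9 tested) had 6 above and 3 below 0 and a median of 0.12, with genes from -0.38 for Pik3ca to 0.82 for Pik3r6, a regulatory subunit of PI3Kγ. The other mTOR complex subunits (8 of 8 tested, 5 above and 3 below 0) had a median of 0.006, from -0.30 for Mapkap1, the mTORC2 subunit SIN1, to 0.69 for Prr5, another mTORC2 subunit. Prr5 was -0.12 without Eµ-PRMT5/TCL1 mouse 3 and 1.5 without Eµ-PRMT5 mouse 3, and Mapkap1 was -0.08 without Eµ-PRMT5/TCL1 mouse 1. The RHEB, RAG and lysosomal nutrient sensing genes (22 of 25 tested) had 9 above and 13 below 0 and a median of -0.18. The amino acid and sterol genes induced through mTORC1 (18 of 19 tested) had 12 above and 6 below 0 and a median of 0.10, from -0.61 for Slc3a2, an amino acid transporter chain, to 0.58 for Srebf2, the regulator of sterol genes. With 1 mouse left out the sign of a median could turn, as it ran from -0.09 to 0.30 for the amino acid and sterol genes, from -0.13 to 0.12 for the other mTOR complex subunits and from -0.34 to 0.22 for the phosphatases and other brakes.

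Against the Eµ-TCL1 mouse the same 103 genes had, at an unadjusted p under 0.05, 3 higher and 3 lower for Eµ-PRMT5 and 2 and 1 for Eµ-PRMT5/TCL1, beside 1.96% higher and 4.82% lower, and 1.75% higher and 4.33% lower, of all genes. These counts rest on 1 Eµ-TCL1 mouse. They changed when only the groups compared were fitted and when scaling was by library size only, and so did the counts of all genes. Mlst8, the subunit common to both mTOR complexes, was low in the Eµ-TCL1 mouse. It measured 41.8, 30.2, 24.4 and 33.2 CPM across Eµ-PRMT5 mice 1 to 4, 28.7, 30.3 and 31.2 CPM across Eµ-PRMT5/TCL1 mice 1 to 3 and 7.30 CPM in the single Eµ-TCL1 mouse. The Eµ-TCL1 mouse lay far below the other 7, and it was below all 7 for 14.2% of all genes. The log2 fold changes were 2.15 ± 0.64 (SE, unadjusted p = 0.00539) for Eµ-PRMT5 and 2.04 ± 0.64 (SE, unadjusted p = 0.00782) for Eµ-PRMT5/TCL1 mice, with adjusted p of 0.709 and 0.778. Ddit4, the stress-induced inhibitor of mTORC1 also called REDD1, was highest in that mouse, at 37.9 CPM against 3.84 to 14.6 CPM in the other 7. That mouse was above all 7 others for 21.3% of all genes. Nprl2 was also among the higher genes for Eµ-PRMT5, and Pik3r3 and Depdc5 were the other lower ones.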

How the data were processed

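Bulk RNA-seq of splenic B cells from 8 mice was analysed, grouped by the genotype in the labels. Values are raw counts by gene symbol as the authors deposited them, and the submitters' processing notes name Subread, featureCounts, DESeq2 1.20.0 and GRCm38. The methods describe low-input preamplification, with that DESeq2 version and no aligner named, for mice sampled at euthanasia. Those comprised 4 Eµ-PRMT5 and 3 double transgenic mice, as here, and more Eµ-TCL1 mice than the 1 held here. The labels instead name a stranded kit at greater depth. The paper ties that kit, with STAR, to younger mice, none of them Eµ-PRMT5 alone. Genotypes, disease stage and the 3356297 to 10252426 counts per library thus point to the low-input protocol, although the labels differ. Whether featureCounts was run by strand is not given in the sources used here.

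Of 24902 symbols 14072 had a value in all 8 libraries. The 36919 cells holding NA, whose meaning is not stated, were not read as 0. edgeR 4.0.16 (R 4.3.3) used TMM factors, its expression filter (13173 genes), the quasi-likelihood test in 1 model of the 3 genotypes, and p-values adjusted by Benjamini-Hochberg. The biological coefficient of variation was 0.483. Log2 CPM used a prior count of 2. Single values were compared by exact permutation tests (scipy 1.17.1), and the test of each component by permutation was added after the data were seen. Code was tested on simulated data. Nothing states whether mice shared a litter or a day, so p-values measure the spread between these mice. The sample title of Eµ-PRMT5 mouse 2 holds the name of a transgenic founder listed in the paper. Founder line and tumour histology were not used as factors. Counting error at the 131 to 5859 counts of the components was not set beside the spread between mice. It could matter where that spread is narrow, as for Akt2. The same holds where a gap is small, as for Rptor in the Eµ-TCL1 mouse (186 counts).

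The components, the gene lists and the rule for naming genes were chosen with earlier results of these data known. The rule took all 8 components, Prmt5 and Tcl1, the 2 genes most like each component, and from each list every called gene or else the 2 highest and 2 lowest log2 fold changes in Eµ-PRMT5/TCL1 against Eµ-PRMT5. Genes named for an unadjusted p under 0.05 beyond these, and other members of their families, were chosen after their values were seen. A few genes that this rule names are left out of the text. Positions and lengths are from GENCODE vM21 (GRCm38). Windows before gene starts are from RefSeq, where all 8 components matched. For each component only the window of the start nearest its GENCODE start was searched. RefSeq listed 4 windows for Akt2, 3 for Pik3cd and 2 for Akt1. The start used for Pik3cd lay 3863 bases from its GENCODE start. The label number of a mouse was tried as a block. DESeq2 1.42.0, other scalings and filters, NA as 0, and leaving out each mouse were alternatives.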

Additional observations from a re-analysis of the deposited data

How the results depend on the processing

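The components called stayed at 0 in the 3 comparisons under DESeq2, both other scalings, both other filters, only the groups compared, NA as 0, and each mouse left out, and in Eµ-PRMT5/TCL1 against Eµ-PRMT5 also with the replicate block, which was run for that comparison alone. DESeq2 called 4 genes of all those tested for Eµ-PRMT5/TCL1 against Eµ-PRMT5, 18 for Eµ-PRMT5 against Eµ-TCL1 and 16 for Eµ-PRMT5/TCL1 against Eµ-TCL1, where edgeR called 0; none was a component or a listed gene. Of 368 other values for the components' log2 fold changes 50 turned sign, 0 of them by more than its standard error, and 1, Akt2 by an exact permutation test added after the data were seen (0.29), had a p under 0.05. That p, 0.0286, is the smallest that 35 splits can give, follows from the lack of overlap already seen, and is not adjusted for the 8 components, so it adds no support. The smallest adjusted p of a component by edgeR or DESeq2 was 0.288. Pairs of components past adjustment numbered 0 under the scalings and samples tried, and the order of levels per length was the same by library size only.

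Signs turned as follows, on the log2 scale. For Eµ-PRMT5/TCL1 against Eµ-PRMT5, Akt1 was 0.063 by upper quartile, 0.030 where every sample needed 10 counts, 0.028 by library size only and 0.0051 with only the groups compared, and Rictor was -0.012 by library size only. For Eµ-PRMT5 against Eµ-TCL1, NA as 0 gave 0.14 for Akt1, 0.18 for Mtor and 0.061 for Tsc2; upper quartile gave -0.14 for Rptor and -0.079 for Rictor, and library size only -0.23 and -0.16. For Eµ-PRMT5/TCL1 against Eµ-TCL1, NA as 0 gave 0.14 for Akt1, 0.16 for Pik3cd and 0.24 for Mtor; Mtor was 0.033 by DESeq2 and 0.067 with only the groups compared; Rictor was -0.040 by upper quartile; library size only gave -0.082 for Rptor, -0.17 for Rictor and -0.095 for Tsc2. Library size only moved the median of all genes from 0.04 to -0.21 in Eµ-PRMT5 against Eµ-TCL1 and from -0.07 to -0.30 in Eµ-PRMT5/TCL1 against Eµ-TCL1. The cause was not tested.

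With each mouse left out, Eµ-PRMT5/TCL1 against Eµ-PRMT5 ran from -0.18 to 0.15 for Akt1, -0.026 to 0.36 for Pik3cd, -0.20 to 0.66 for Inpp5d, -0.084 to 0.16 for Mtor, -0.057 to 0.34 for Rptor and -0.24 to 0.31 for Rictor. Eµ-PRMT5 against Eµ-TCL1 ran from -0.28 to 0.051 for Akt1, -0.49 to 0.023 for Pik3cd, -0.21 to 0.15 for Mtor, -0.20 to 0.32 for Rptor and -0.26 to 0.33 for Rictor. Eµ-PRMT5/TCL1 against Eµ-TCL1 ran from -0.32 to 0.0053 for Akt1, -0.16 to 0.070 for Mtor and -0.20 to 0.34 for Rictor. The log2 ratio difference ran from -0.16 to 0.39 for Rptor to Rictor, from -0.52 to 0.47 for Pik3cd to Inpp5d and from -0.48 to -0.13 for Akt1 to Akt2.

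With the replicate block, on mice 1 to 3 of both genotypes, 0 genes were called, Akt1 was 0.11 and Rictor -0.066; the same 6 mice with no block gave 0.13 and -0.075. Same-numbered mice correlated by 0.021, 0.11 and 0.16 in their deviations, and 4 of 6 correlated best with their own number. These values do not decide whether the numbers mark a pairing. At an unadjusted p under 0.05 the block gave 495 genes higher and 331 lower, against 374 and 368 without it. Among lists, the median of the RHEB, RAG and nutrient sensing genes was -0.012 without Eµ-PRMT5 mouse 1. One Eµ-TCL1 mouse and 3 or 4 mice in the other genotypes limit what size of difference could be called.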
